A study of Mus musculus with 24 samples.

Results

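Cirbp, Rbm3, Clk1 and Clk4 encode proteins known to respond to temperature: a pair of cold-inducible RNA-binding proteins and a pair of CLK kinases. Their mRNA was followed in the mouse hepatocyte line MMH-D3 on 24 Affymetrix arrays, each from another time between 12 and 58 h after serum shock, with samples 2 h apart. Members were the probe sets whose platform annotation gave 1 of these 4 symbols alone. This selected 4 of the 45101 probe sets on the array, for 3 of 18193 genes: 1 for Cirbp (1416332_at), 1 for Clk1 (1426124_a_at) and 2 for Clk4. Rbm3 had no such probe set, because both probe sets that name it also name the pseudogene Rbm3-ps. These 2 are described separately and were counted in no total.

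CIRBP and RBM3 are small RNA-binding proteins with a single RNA recognition motif and a glycine-rich tail. Their mRNAs rise when mammalian cells are cooled mildly, and in mouse liver Cirbp follows the daily cycle of body temperature and acts on the circadian clock by changing how transcripts such as Clock are processed. CLK1 and CLK4 are nuclear kinases that phosphorylate SR proteins, the splicing factors rich in serine and arginine, and their kinase activity is higher at lower body temperature. Transcripts of Clk1 and Clk4 are themselves spliced in alternative ways, and a suffix of _a_at marks a probe set shared by several transcripts of its gene, which applies to all 3 CLK probe sets here. The arrays therefore report summed transcripts and neither splice forms nor kinase activity.

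The bases before the transcription start are shown for Cirbp and Clk4, from RefSeq on build GRCm38.p6, so that known response elements can be read beside the time courses. Each run covers 250 bases on the plus strand and ends at the last base before an annotated start, chr10:80167589-80167838 for Cirbp and chr11:51262864-51263113 for Clk4. Capitals mark the matches to the motifs searched.
Cirbp: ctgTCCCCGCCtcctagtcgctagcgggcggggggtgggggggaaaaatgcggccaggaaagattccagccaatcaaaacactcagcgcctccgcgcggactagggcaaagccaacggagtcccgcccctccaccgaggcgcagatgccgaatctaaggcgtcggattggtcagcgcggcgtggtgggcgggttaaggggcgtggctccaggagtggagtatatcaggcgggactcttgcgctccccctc
Clk4: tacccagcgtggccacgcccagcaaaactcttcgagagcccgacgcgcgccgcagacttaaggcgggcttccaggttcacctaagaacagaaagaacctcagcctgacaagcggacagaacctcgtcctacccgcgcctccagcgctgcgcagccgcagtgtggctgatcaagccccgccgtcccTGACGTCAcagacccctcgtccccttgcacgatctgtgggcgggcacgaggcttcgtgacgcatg
The capitals in Cirbp spell TCCCCGCC, the letters of the mild cold-responsive element described in the regulatory region of this gene, beginning 247 bases before the start. This motif lay in 4.64% of the 32851 RefSeq windows of the same length, on either strand. The capitals in Clk4 spell TGACGTCA, the cAMP response element, beginning 65 bases before the start, which was added to the search after the sequence was seen and lay in 1.55% of windows. Neither run held the heat shock element core GAANNTTC (6.69% of windows), the E-box CACGTG (6.02%), the D-box TTATGTAA (0.819%) or the C/EBP-ATF response element TGATGNAAT (0.816%), all searched on both strands, and none of the 6 motifs contains another. A second annotated start of Cirbp had none of the 6 motifs in its 250 bases. Clk1 and Rbm3 are named only.

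All arrays shared the same cells and handling up to the shock. Confluent MMH-D3 cells were grown at 37 °C, differentiated for 14 days in medium with 2% DMSO, then given a serum shock, which sets the clocks of single cells to a common phase. The labels name no change of temperature during sampling and no separate cultures, so p-values measure only the scatter of single arrays about a fitted course, which may be technical. Values are log2 GCRMA values, in which a difference of 1 is a doubling. Hepatocyte transcripts were abundant, with Alb at a mean of 15.97 and Hnf4a at 11.9. Of 5 macrophage markers 2 passed the filter on low values and of 5 fibroblast and 4 endothelial markers none, with the averages of the latter lists between 2.39 and 2.52 and between 2.17 and 2.19 against a lowest value of 2.17 in the table. The 4 bile duct epithelium markers were all measured, with means of 15.44 for Krt19, 12.53 for Krt7, 10.83 for Epcam and 8.65 for Sox9. Of these Epcam fell over the series (-1.29, limma, adjusted p = 0.000267). Of the hepatocyte markers Ttr (-1.34), Apoa1 (-2.54) and Alb (-0.34) fell and Rbp4 rose (0.54), and the part of these changes in the results below was not tested. The 40 h array had the lowest median over measured probe sets, 8.96, and the 46 h array the highest, 9.14.

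Cirbp declined through the series, most steeply at the start. At 12, 14, 16 and 18 h its values were 9.75, 9.69, 9.74 and 9.36, and at 20, 22, 24 and 26 h 9.40, 9.47, 9.37 and 9.23. From 28 to 34 h all 4 values lay between 9.24 and 9.32, and from 36 to 42 h between 8.98 and 9.23. The first 3 arrays were the highest of all 24. The last 8 arrays scattered more, with 9.35 at 44 h, 8.70 at 50 h, the lowest value of the series, and 9.22 at 58 h. Block means over 8 h went from 9.64 ± 0.19 (SD, n = 4) at 12 to 18 h to 9.14 ± 0.11 at 36 to 42 h and 9.04 ± 0.20 at 52 to 58 h. The whole range was 1.05 on the log2 scale, a ratio of 2.07.

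Clk1 followed a trough and a later plateau instead. It went from 11.50 at 12 h to its lowest value, 10.74, at 26 h, with 11.26, 11.33, 11.15, 11.01, 10.89 and 10.86 at the 6 time points between. It then stood at 10.97 at 28 h, 11.11 at 34 h and 11.26 at 36 h, and at 11.03 at both 40 and 42 h. At 44 h it was 11.45, and all 8 arrays from 44 to 58 h, at 11.28 to 11.65, were above the highest value at 36 to 42 h. Of these 8, 3 were also above the 12 h array, so the plateau overlapped the start of the series. Block means were 11.31 ± 0.14 (SD, n = 4) at 12 to 18 h, 10.87 ± 0.11 at 20 to 26 h, 11.12 ± 0.11 at 36 to 42 h and 11.51 ± 0.11 at 52 to 58 h.

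Clk4 had the same outline with a longer trough. In its brighter probe set (1422886_a_at), which represents the gene below, values of 8.03, 7.93, 7.90 and 7.59 at 12 to 18 h gave way to values between 7.39 and 7.73 from 20 to 34 h. They reached 8.03 at 36 h and 8.06 at 38 h, were 7.77 and 7.92 at 40 and 42 h, and then 8.33, 8.34, 8.33 and 8.27 at 44 to 50 h. All 8 arrays from 44 h on, at 8.16 to 8.34, exceeded every earlier array. How many of all measured probe sets separated like this, or like Clk1 above, was not counted. The other probe set (1427663_a_at) ran from 7.09 at 18 h to 8.05 at 46 h, and 5 of its 8 late values exceeded every earlier one. The 2 probe sets had an r of 0.88 and a rho of 0.92 over the 24 arrays, given as a description because they report 1 gene on the same arrays.

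**Figure D1:**
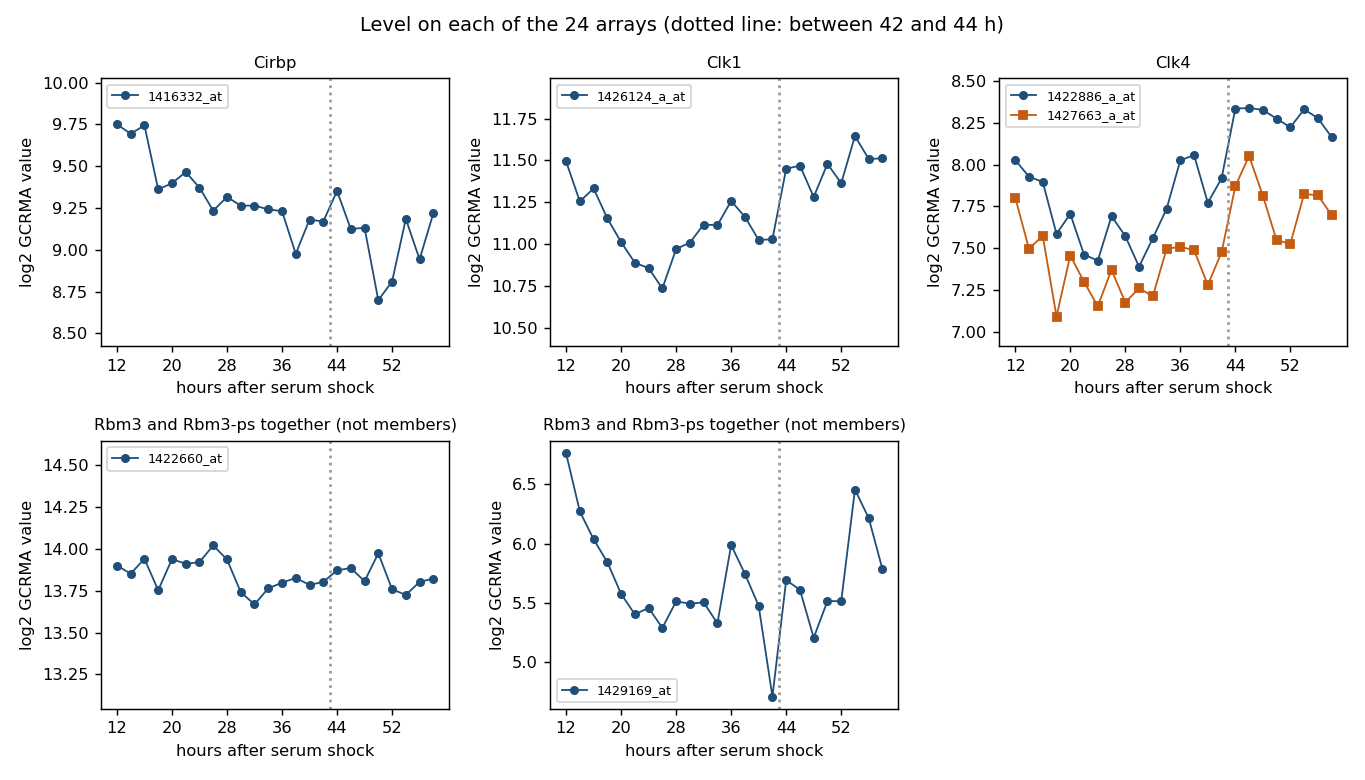
Log2 GCRMA value (vertical axis, a separate range in each panel) against hours after serum shock for each array of the member probe sets and of the 2 probe sets shared by Rbm3 and Rbm3-ps; each point is 1 array and the dotted line lies between 42 and 44 h. Cirbp declines from 9.75. Clk1 is lowest at 26 h and the brighter Clk4 probe set at 30 h, and both have a plateau from 44 h. The other Clk4 probe set is lowest at 18 h.

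The probe sets that name both Rbm3 and Rbm3-ps disagreed with each other, and the gene and its pseudogene cannot be told apart on them. The first (1422660_at) was bright and nearly level, with a lowest value of 13.67, a median of 13.83 and a highest of 14.02. Its linear change did not pass, with a linear change over 46 h of -0.10 ± 0.06 (SE, limma, adjusted p = 0.188). After each array was centred on its median it passed as a fall (-0.16, adjusted p = 0.0409). The second (1429169_at) was dim, from 4.71 at 42 h to 6.76 at 12 h, a ratio of 4.14. It fell from 6.23 ± 0.40 (SD, n = 4) at 12 to 18 h to 5.43 ± 0.12 at 20 to 26 h, a difference of -0.80 ± 0.23 (SE, limma, adjusted p = 0.0242), and all 4 later arrays lay below the 4 earlier ones. That call was lost without the 12, 14, 24 or 26 h array, where the adjusted p reached 0.117, and with no filter on low values (adjusted p = 0.0801). Over all 24 arrays its linear change was -0.27 ± 0.28 (SE, limma, adjusted p = 0.463). From 12 to 42 h alone the slope was -1.69 over 46 h (adjusted p = 0.000208), and the last 8 arrays lay at 5.21 to 6.45.

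None of the 3 genes was called 24 h rhythmic. The model, a straight line plus a 24 h wave, was fitted with limma to all 18526 probe sets that reached a log2 value of 5 on at least 6 arrays, and 2.59% of those were called at an adjusted p under 0.05. The amplitude, from the middle of the wave to its crest, was 0.08 ± 0.05 (SE) for Cirbp, 0.12 ± 0.06 for Clk1 and 0.13 ± 0.07 for Clk4, against a median of 0.08 over all measured probe sets (limma, adjusted p = 0.531, 0.424 and 0.472). At an unadjusted limma p under 0.05 the count was also 0. In the same fit 9 of the 10 clock genes on a list were rhythmic, among them Dbp with an amplitude of 1.33 and Per2 with 1.37 (limma, adjusted p = 1.64e-11 and 3.41e-08). The result for the kinases depended on the late arrays. With a step at 44 h in the model, Clk1 (0.21 ± 0.03, first peak at 12.3 h) and Clk4 (0.19 ± 0.05, 14.5 h) were called (limma, adjusted p = 0.000202 and 0.0241), as they were from the 16 arrays at 12 to 42 h alone (0.24 and 0.24, adjusted p = 0.000571 and 0.0229), which span little more than 1 cycle. Cirbp was called in neither (adjusted p = 0.171 and 0.539). Nor was the other Clk4 probe set, with amplitudes of 0.15 and 0.16 (limma, adjusted p = 0.111 and 0.173). Over all 18526 measured probe sets 2704 were called with the step and 1602 from 12 to 42 h alone, against 479 in the first fit. In the first model, without a step, leaving out 12 to 18 h gave Clk1 an amplitude of 0.0041 (limma, adjusted p = 0.997) and Clk4 0.14 (adjusted p = 0.138). Neither kinase was called by that model on all arrays. The calls made with the step or from 12 to 42 h were therefore not tested by leaving out these arrays.

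A window test compared the 24 h terms of early and late arrays. Its fit held no step at 44 h, so it cannot tell a changed 24 h wave from such a step. The 24 h terms of the 12 arrays from 12 to 34 h and of the 12 from 36 to 58 h differed for Clk1 by a vector of size 0.42 ± 0.07 (SE) and for Clk4 by 0.41 ± 0.08 (limma, adjusted p = 0.000672 and 0.00333), while for Cirbp the size was 0.06 ± 0.09 (adjusted p = 0.851). So 2 of the 3 genes were called, where 30.1% of all measured probe sets were. The other Clk4 probe set gave 0.33 ± 0.11 and was not called (adjusted p = 0.0798).

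Over the 46 h Cirbp fell and both kinases rose by the linear term of that fit. The change was -0.62 ± 0.11 (SE) for Cirbp, a ratio of 1.53 from start to end, 0.46 ± 0.14 for Clk1 and 0.83 ± 0.17 for Clk4, ratios of 1.38 and 1.78 (limma, adjusted p = 0.000148, 0.0136 and 0.000372). Of all measured probe sets 24.9% rose and 16.7% fell, with a median change of 0.06. Of the probe sets called, 59.9% rose, and 48.0% after each array was centred on its median, a setting that kept all 3 calls and directions. The linear change of the kinases depended on both ends of the series. Slopes from part of the arrays are scaled to 46 h here and below. Without 12 to 18 h the slope was 0.89 for Clk1 and 1.28 for Clk4 (limma, adjusted p = 5.40e-06 and 7.89e-07). Without 44 to 58 h it was -0.38 for Clk1 (limma, adjusted p = 0.00958), 0.04 for Clk4 (adjusted p = 0.901) and -0.945 for Cirbp (adjusted p = 9.07e-05). With a step at 44 h the values were -0.39 for Clk1 (adjusted p = 0.0103), -0.0075 for Clk4 (adjusted p = 0.983) and -0.94 for Cirbp (adjusted p = 0.000273). The fall of Cirbp was called in each of the 24 fits that left out 1 array, from -0.69 to -0.58.

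Arrays 24 h apart share the phase of a daily cycle, so the second day was also set against the first in 12 such pairs. Cirbp was lower on the second day in 12 of 12 pairs, by -0.02 to -0.72, with a mean of -0.34 ± 0.07 (SE, limma, adjusted p = 0.0018). Clk4 was higher in 10 of 12 pairs, with a mean of 0.51 ± 0.10 (limma, adjusted p = 0.0018), and Clk1 in 8 of 12, with 0.27 ± 0.10 (limma, adjusted p = 0.0431). Of all measured probe sets 19.3% were higher and 12.5% lower, so that 60.7% of those called were higher, and 47.7% after centring. The calls of Cirbp and of the brighter Clk4 probe set held without each pair in turn. The other Clk4 probe set was higher in 9 of 12 pairs, with a mean of 0.29 ± 0.10 (SE, limma, adjusted p = 0.0325). It was called in 6 of the 12 fits that left out 1 pair. With no filter (adjusted p = 0.0934) and after quantile normalization (adjusted p = 0.0693) it was not called. The call of Clk1 was lost without any 1 of the 8 pairs from 20 and 44 h to 34 and 58 h (adjusted p up to 0.0926), after centring (0.23, adjusted p = 0.0578) and with no filter (adjusted p = 0.138).

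**Figure D2:**
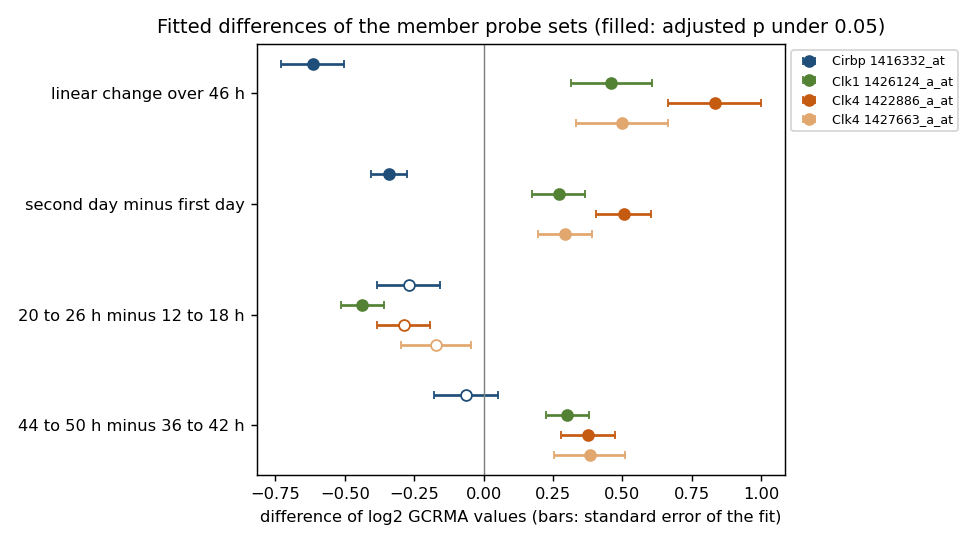
Fitted log2 difference (horizontal axis) with its standard error for the 4 member probe sets in 4 comparisons; filled points passed an adjusted p of 0.05. Cirbp lies below 0 in all 4, at -0.62 for the linear change, while the CLK probe sets lie below 0 in the early comparison and above 0 in the others.

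Consecutive blocks of 8 h, with 4 arrays each, show when the genes moved. How many of all measured probe sets had blocks without overlap, as here or in the dim probe set of Rbm3 and Rbm3-ps, was not counted. Between 12 to 18 h and 20 to 26 h Clk1 fell by 0.44 ± 0.08 (SE, limma, adjusted p = 0.000646), and all 4 later arrays lay below the 4 earlier ones. It was the 1 gene of 3 called, where 6.15% of measured probe sets fell and 6.14% rose. Cirbp gave -0.27 ± 0.11 and Clk4 -0.29 ± 0.10, and neither passed (limma, adjusted p = 0.13 and 0.0519). Clk4 lay close to the threshold and passed after quantile normalization (adjusted p = 0.0249) or centring (adjusted p = 0.0419), with 1 variance prior for all levels (adjusted p = 0.0438), and without the 18, 20, 30 or 40 h array. Cirbp passed without the 18 h array (adjusted p = 0.0347). For the other Clk4 probe set the difference was -0.17 ± 0.13 (SE, limma, adjusted p = 0.415). It passed in no other setting and in 0 of the 24 fits that left out 1 array.

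Between 36 to 42 h and 44 to 50 h both kinases rose and Cirbp did not pass. Clk1 rose by 0.30 ± 0.08 (SE) and Clk4 by 0.38 ± 0.10, ratios of 1.23 and 1.30 (limma, adjusted p = 0.0051 and 0.00488), with no overlap between the blocks, where 20.3% of all measured probe sets rose and 11.4% fell. Of the probe sets called 63.9% rose, and 46.7% after centring, which kept both calls. The other probe set of Clk4 rose by 0.38 ± 0.13 (limma, adjusted p = 0.0251), a call lost without the 40 or the 46 h array (adjusted p up to 0.0979), with no filter and after quantile normalization. Cirbp gave -0.06 ± 0.11 (limma, adjusted p = 0.707). Both rises kept their calls without the 40 h array.

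The 3 genes were then compared pair by pair through the difference of their log2 values on each array, which removes anything that moves both alike. The linear change of Cirbp minus that of Clk1 was -1.08 ± 0.15 (SE, n = 24; 95% interval from -1.39 to -0.76) and minus that of Clk4 -1.45 ± 0.18 (-1.83 to -1.07), both with p = 2e-05 by a two-sided permutation test of residuals, 3e-05 after adjustment over the 3 pairs. The change of Clk1 minus that of Clk4 was -0.37 ± 0.10 (-0.58 to -0.16; permutation test, p = 0.00184, adjusted p = 0.00184). With the mean of both Clk4 probe sets this last difference was -0.21 (permutation test, adjusted p = 0.0496), and without 44 to 58 h -0.41 (permutation test, adjusted p = 0.0596). The 24 h terms did not pass for any pair: the difference had an amplitude of 0.05 ± 0.06 for Cirbp and Clk1, 0.08 ± 0.08 for Cirbp and Clk4 and 0.11 ± 0.04 for Clk1 and Clk4 (permutation test, adjusted p = 0.718, 0.718 and 0.121). Without 44 to 58 h that of Cirbp and Clk1 was 0.18 ± 0.04 and passed with an adjusted p of 0.00678 by permutation, while the kinases differed without the 18 or the 26 h array (lowest adjusted p = 0.0225). Arrays that follow each other by 2 h may share deviations, which this test does not take up.

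**Figure D3:**
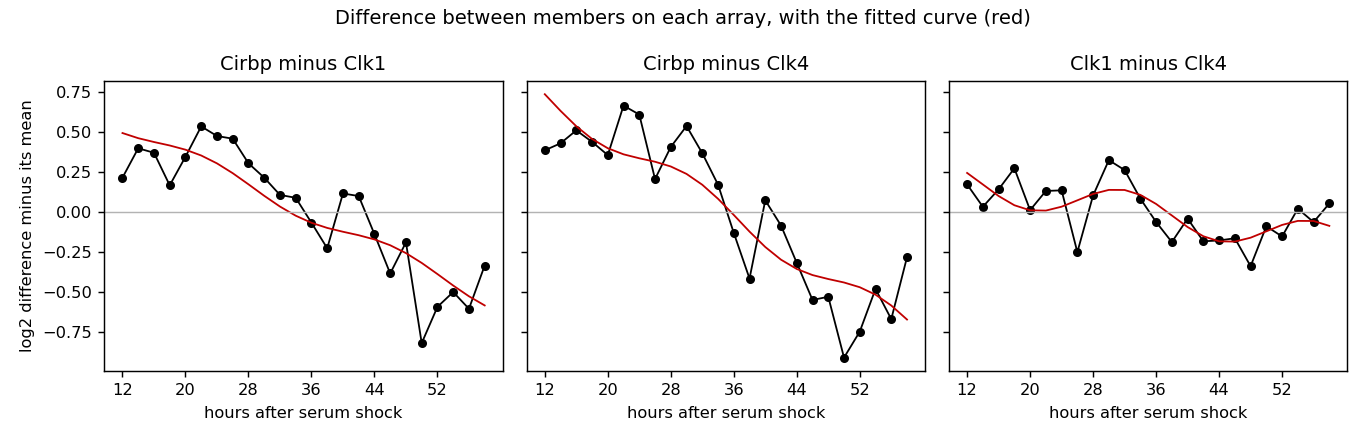
Difference of the log2 values of 2 members on each array minus its mean over the 24 arrays (points, vertical axis) against hours after serum shock, with the fitted linear and 24 h curve in red. Both differences that start from Cirbp decline, with linear changes of -1.08 and -1.45, while that between Clk1 and Clk4 stays within a narrower range.

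As a description over the 24 arrays, with no p because the points follow each other in time and share their arrays, Clk1 and Clk4 had an r of 0.84 (rho 0.85), and 0.78 after a linear term was removed from each. Clk4 ranked 57 among the 9824 other measured genes in likeness to Clk1, and Clk1 ranked 187 in likeness to Clk4. Cirbp had an r of -0.18 with Clk1 and -0.41 with Clk4, but 0.46 and 0.32 after the linear term was removed and 0.49 and 0.09 over the arrays from 12 to 42 h, so the sign differed between these settings. The 5 genes most like Cirbp were Smim7 (r = 0.93), Suclg2 (0.90), a subunit of mitochondrial succinate-CoA ligase, Vamp2 (0.89), a protein of vesicle fusion, Phpt1 (0.89) and Pced1a (0.89). Those most like Clk1 were Rab5a (0.91), a GTPase of early endosomes, Zfp715 (0.91), Slc25a37 (0.91), the mitochondrial iron carrier mitoferrin, Vmp1 (0.91), a protein of autophagosome formation, and Ints12 (0.90). Those most like Clk4 were the lysosomal protease gene Ctsc (0.94), the chemokine gene Cxcl10 (0.93), the transcription factor gene Tgif1 (0.92), Cops5 (0.92) and Zfp566 (0.92).

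Of the other kinases of SR proteins and their relatives, 11 of the 13 listed genes were measured. Over the 46 h 5 of them rose, 1 fell and 5 were not called, where 24.9% of all measured probe sets rose and 16.7% fell. The median change was 0.21, against 0.07 over all 9825 measured genes. Dyrk3, which dissolves condensates that hold splicing factors, rose by 1.24 ± 0.15 (SE, limma, adjusted p = 7.60e-07), from a block mean of 7.61 at 12 to 18 h to 8.68 at 52 to 58 h. Dyrk1a rose by 0.60 and Hipk1 by 0.38 (limma, adjusted p = 0.000339 and 0.000511). Other probe sets of Dyrk1a gave 0.53, which was called, and 0.11, which was not (limma, adjusted p = 0.00335 and 0.332). Those of Hipk1 gave 0.24 and 0.53, neither called (limma, adjusted p = 0.192 and 0.178). The closest relatives of the member kinases, Clk2 and Clk3, rose by 0.35 ± 0.09 and 0.21 ± 0.07 (limma, adjusted p = 0.00417 and 0.0162). Neither was called without 44 to 58 h, at 0.08 and 0.28 (adjusted p = 0.732 and 0.0901), nor were Dyrk1a (0.10, adjusted p = 0.703) and Hipk1 (0.34, adjusted p = 0.05). Clk2 was also lost without the 24 h terms (0.24, adjusted p = 0.0538). The step to 44 to 50 h did not pass for either, with 0.09 for Clk2 and -0.09 for Clk3 (limma, adjusted p = 0.417 and 0.346), and whether they differ in this from Clk1 and Clk4 was not tested. With a step at 44 h in the model Clk2 was called 24 h rhythmic (0.14, adjusted p = 0.0245). Clk3 was not called after centring (0.15, adjusted p = 0.154). The SR protein kinase gene Srpk2 gave 0.26 (adjusted p = 0.0747), with its 4 other probe sets called as rises of 0.36 to 0.58, and without the 40 h array it passed (0.34, adjusted p = 0.00305). Prpf4b, a spliceosomal kinase gene named because it was the 1 that fell, gave -0.21 (limma, adjusted p = 0.049). Its 5 other probe sets gave -0.32 to -0.05, none called, and with no filter no gene of the list was called as a fall. Of the whole list 1 gene rose and 1 fell without 44 to 58 h, where 2657 of all 18526 measured probe sets rose and 2987 fell.

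SR proteins and TRA2 proteins are the substrates of CLK kinases. Of 11 measured genes of 13, 5 fell, 1 rose and 5 were not called, beside the 16.7% and 24.9% of all measured probe sets, and the median change was -0.18. Srsf1 fell by 0.54 ± 0.06 (SE, limma, adjusted p = 9.56e-07), with its 5 other probe sets also called as falls. Srsf4 fell by 0.61 ± 0.12 and Srsf2 by 0.43 ± 0.08 (limma, adjusted p = 0.000295 and 0.000238). Srsf4 fell by 0.46 from 36 to 42 h to 44 to 50 h, from 9.42 to 8.95 (limma, adjusted p = 5.98e-05), and without 44 to 58 h its slope was -0.00038 (adjusted p = 0.999). Srsf5 was the 1 that rose, by 0.34 ± 0.08 (limma, adjusted p = 0.00151), with block means of 12.26, 12.10, 12.13, 12.31, 12.38 and 12.33. By representative probe sets none was called 24 h rhythmic, with Tra2a at 0.16 (limma, adjusted p = 0.0709) and Srsf5 at 0.12 (adjusted p = 0.107). Another probe set of Tra2a was called, at 0.56 (adjusted p = 0.0367). Both passed with a step at 44 h in the model (adjusted p = 0.0299 and 0.0185). Without 44 to 58 h 4 genes of the list fell and none rose, where 2987 and 2657 of all 18526 measured probe sets did. Srsf5 (0.12, adjusted p = 0.54) and Srsf2 (-0.25, adjusted p = 0.116) were then not called.

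A list of cold shock domain proteins, and of proteins that share the RNA recognition motif with CIRBP and RBM3, had 5 measured genes of 11. By representative probe sets 3 fell and none rose, beside 16.7% and 24.9% of all measured probe sets, with a median of -0.22. After quantile normalization 1 rose (Carhsp1, 0.21, adjusted p = 0.0493). Rbmx, a nuclear RNA-binding protein gene, fell by 1.20 ± 0.17 (SE, limma, adjusted p = 1.03e-05), from 8.79 at 12 to 18 h to 7.65 at 44 to 50 h, while its other probe set gave -0.28, which was not called, and an amplitude of 0.35, which was called 24 h rhythmic (adjusted p = 0.0446). Its copy Rbmxl1 fell by 0.32 (limma, adjusted p = 0.00623), and cross-hybridization between these near-identical genes was not tested. Ybx1, the Y-box protein gene, fell by 0.22 (limma, adjusted p = 0.0353), a call lost in 10 of 24 fits that left out 1 array. Without 44 to 58 h Rbmxl1 gave 0.02 and Ybx1 0.12, neither called. By its representative probe set Ybx3 was not called for a linear change (0.02, adjusted p = 0.921), while its other probe set rose by 0.31 (limma, adjusted p = 0.0251). The representative rose by 0.50 at 44 to 50 h (limma, adjusted p = 0.000683), after a slope of -0.81 over 46 h from the arrays to 42 h (adjusted p = 0.00148).

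Heat-inducible genes, which code mainly for chaperones under control of HSF1, moved in both directions. Of 18 measured genes of 23, 2 rose and 3 fell over the 46 h, shares at or below those of all measured probe sets (24.9% and 16.7%), with a median of -0.02. Between 36 to 42 h and 44 to 50 h 3 rose and 5 fell, where 20.3% and 11.4% of all measured probe sets did. The largest of these 8 were Hspa1a (-0.64) and Hspa1b (-0.58), near-identical genes of inducible HSP70, and Hspa4 (0.50) (limma, adjusted p = 0.0168, 0.000135 and 8.15e-05), the first pair named after their values were seen. By representative probe sets 0 were called 24 h rhythmic by limma. Hsp90aa1 had the smallest p for rhythm, with an amplitude of 0.08 (limma, adjusted p = 0.105) and a further probe set that was called (0.16, adjusted p = 0.0219), followed by Serpinh1 (0.09, adjusted p = 0.123) and Hspd1 (0.09, adjusted p = 0.184). With a step at 44 h in the model 2 were called, Hsp90aa1 (adjusted p = 0.0126) and Serpinh1 (adjusted p = 0.0284), where 2704 of all 18526 measured probe sets were. Hspa4 rose by 0.69 ± 0.11 (SE, limma, adjusted p = 4.98e-05), though its 2 other probe sets gave -0.13 and 0.06. Dnaja1, which encodes a partner of HSP70, fell by 0.31 ± 0.08 (limma, adjusted p = 0.00256), with block means of 13.65 at 36 to 42 h and 13.37 at 44 to 50 h. Dnajb1 fell by 0.22 and Ahsa1 by 0.29 (limma, adjusted p = 0.0224 and 0.0285), both named after their values were seen. Serpinh1, a collagen chaperone gene, rose by 0.19 (limma, adjusted p = 0.0217), a call lost without the 58 h array (adjusted p = 0.0571) and after centring (adjusted p = 0.115). Without 44 to 58 h Hspa4 gave 0.13, Dnaja1 0.03 and Serpinh1 -0.02, none called. The list then had 4 rises and 5 falls, where 2657 of all 18526 measured probe sets rose and 2987 fell.

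**Figure D4:**
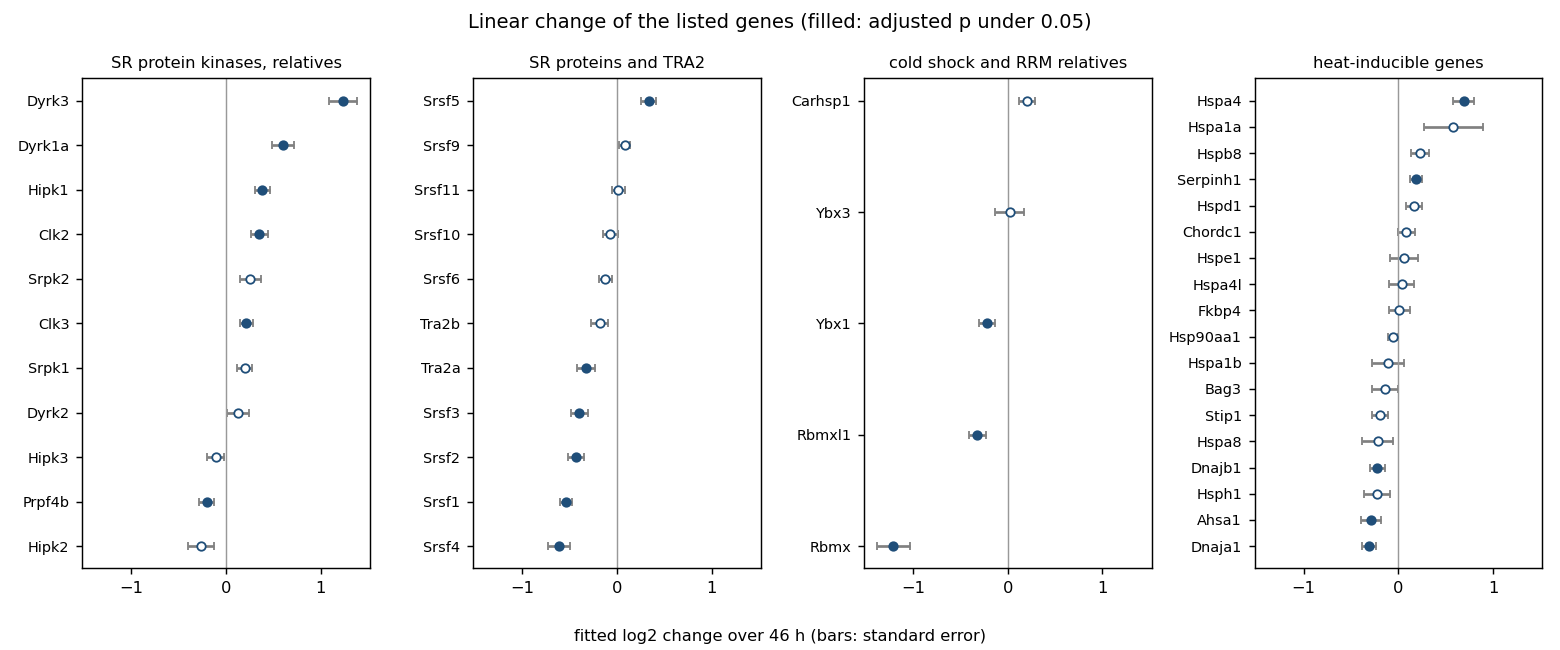
Fitted log2 change over 46 h (horizontal axis) with its standard error for each measured gene of 4 lists, 1 point per gene by its representative probe set; filled points passed an adjusted p of 0.05. In the list of SR protein kinases and relatives 5 filled points lie above 0 and 1 below; among SR proteins and TRA2 1 lies above and 5 below.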

How the data were processed

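RNA from 24 time points of MMH-D3 cells was hybridised to 24 single-colour arrays. The authors deposited 1 log2 value per probe set and array; the submitters' processing notes name GCRMA, its version not given in the sources used here; GCRMA normalizes arrays together, so a global shift would be removed. That the scale is log2 was judged by the range (2.17 to 17.47), of which 41.1% equal the lowest. The number of arrays limits the precision.

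Symbols came from GEO's platform annotation: 34958 probe sets had 1, 932 several and 9211 none; 34754 matched RefSeq by Entrez ID. The 64 controls were left out. Of the rest, 18526 reached a log2 value of 5 on at least 6 arrays. For a gene with several kept probe sets the one of highest mean stands. Linear and 24 h terms, paired days, blocks of 8 h and windows were fitted with limma 3.58.1 in R 4.3.3, with a variance prior that follows intensity and Benjamini-Hochberg adjustment over all kept probe sets. Pairs of members were tested with 100000 permutations. Tests were checked on simulated data. Members and the 5 gene lists were chosen with earlier results of these data known. Named were, from each list, the 3 genes of smallest p for rhythm and for linear change, and the 5 genes most like each member; Prpf4b, Dnajb1, Ahsa1, Hspa1a and Hspa1b were named after their values were seen. Of the clock list only Dbp and Per2 are printed here, beside Nr1d2 and Tef in the closing section where their values turn. Hepatocyte markers Serpina1a and Tf had no probe set naming them alone. Alternatives covered the filter, normalization, drift term, variance prior, probe set choice and arrays left out.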

Additional observations from a re-analysis of the deposited data

Results flagged for a closer look

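The difference between the 24 h terms of the arrays at 12 to 34 h and those at 36 to 58 h passed its test for Clk1, with a size of 0.4224 on the log2 scale (limma, adjusted p = 0.000672), and for Clk4, with 0.407 (limma, adjusted p = 0.00333). It was called in each of the 24 fits that left out 1 array, from 0.39 to 0.46 for Clk1 and from 0.37 to 0.46 for Clk4, and 30.1% of all measured probe sets passed the same test. The fit held no step at 44 h, so the test cannot tell a changed 24 h wave from such a step.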

How the results depend on the processing

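The counts of genes called for the linear change (3), the second day (3), the comparison of 44 to 50 h with 36 to 42 h (2) and the windows (2) stayed within 1.5 times their value under every filter, normalization, variance prior and left-out array tried for them, and the first also under every model term. These counts ignore direction. For the linear change with a step at 44 h, or without 44 to 58 h, Clk1 was called as a fall and Clk4 was not called. With the other probe set of Clk4 the windows gave 1. Of the 3 genes, 0 were called 24 h rhythmic, against 2 with a step at 44 h added and 2 without the arrays at 44 to 58 h. Both counts of 2 include Clk4 by its brighter probe set, while its other probe set was called in neither setting. In the comparison of 20 to 26 h with 12 to 18 h 1 was called, against 2 with 1 variance prior, after centring and after quantile normalization, and 1 to 3 when single arrays were left out. Here too Clk4 stands by its brighter probe set, and its other probe set was called in none of these settings. Of the 3 pairs 0 differed in their 24 h terms, against 1 without 44 to 58 h and 0 to 1 when single arrays were left out. The correlations of members over the 24 arrays, -0.18 for Cirbp and Clk1, -0.407 for Cirbp and Clk4 and 0.843 for Clk1 and Clk4, were -0.338 and -0.543 by rank for the pairs with Cirbp, and 0.492, 0.093 and 0.67 without 44 to 58 h.

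Linear changes that turned were, with a step at 44 h, Clk1 (-0.3926), Clk4 (-0.007458), Dnaja1 (0.05612), Nr1d2 (-0.2329), Rbmxl1 (0.05302), Ybx1 (0.09013) and Ybx3 (-0.746), and without 44 to 58 h Clk1 (-0.3751), Dnaja1 (0.03432), Nr1d2 (-0.3057), Rbmxl1 (0.02398), Serpinh1 (-0.02056), Ybx1 (0.1162) and Ybx3 (-0.8116). Without the 24 h terms Nr1d2 (-0.02092) and Tef (-0.3235) turned, and Hspa4 (-0.1277) in another probe set. The other Clk4 probe set turned from 0.50 to -0.27 with the step and to -0.22 without 44 to 58 h, and the dim probe set of Rbm3 and Rbm3-ps, not called, from -0.27 to 0.38 without 12 to 18 h. The cause was not tested. Over the whole array 479 probe sets were called rhythmic, 198 with no filter, 2064 with a quadratic trend, 2704 with a step at 44 h and 1602 without 44 to 58 h. The labels give no replicate numbers that could pair samples, and the pairing of days was by time alone.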
